A study of Mus musculus with 39 samples.

Results

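Shore tiles are 200 bp stretches of the mouse genome that lie beside CpG-dense stretches but are not dense themselves. Every CpG listed in the deposited table of single CpGs was assigned to a 200 bp tile, and a tile with at least 5 listed CpGs was called dense. A tile with at most 4 listed CpGs whose start lay within 2000 bp of the start of a dense tile was called a shore tile. This rule uses positions and no methylation value, and it gave 43837 shore tiles among the 377684 tiles of the deposited tile table, or 11.6% of them. Of the remaining tiles, 20492 were dense and 313355 lay farther away, and the distant ones are called open sea here. The name shore is positional, since no CpG island annotation of the build used by the files (mm9) was used, and density counts listed CpGs rather than all CpGs of the sequence.

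Cytosines in CpG dinucleotides are methylated across most of the mammalian genome, whereas CpG islands, many of which overlap promoters, usually stay free of 5-methylcytosine (5mC). Between an island and the surrounding methylated DNA lies the shore, where methylation passes from low to high, and differences between tissues are often found there. TET enzymes oxidise 5mC to 5-hydroxymethylcytosine (5hmC), which is found in embryonic stem cells. Naive stem cells grown with 2 kinase inhibitors and LIF have low methylation over much of the genome, which rises when they differentiate.

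The data were reduced representation bisulfite sequencing (RRBS) libraries of genomic DNA cut with MspI, which samples CpG-rich fragments and reads 5mC and 5hmC together, called total methylation here. Oxidative RRBS (oxRRBS) reads 5mC without 5hmC. The mouse embryonic stem cells (mESC) were p53-null or wild type (WT), from matings of mice carrying 1 copy of the 129s-Trp53tm2Tyj/J allele, and were derived from E2.5 morulas on irradiated feeder cells in 2i medium. The p53 protein is a transcription factor of the DNA damage response, and the allele is a germline one that affects every cell. RA-treated cells were depleted of feeders and given 1 uM retinoic acid (RA), which drives differentiation, for 4 days, in 4 p53-null and 5 WT RRBS libraries and in 4 p53-null and 4 WT oxRRBS libraries. Naive cells, not given RA, had 3 p53-null and 5 WT libraries with each assay. Liver came from male p53-null or WT mice of 16 weeks, with 3 RRBS libraries for each genotype. Whether the mESC libraries came from separate lines, and the sex of those lines, is not stated in those labels.

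Each deposited value is 1 pooled value per group, so there is no SD or n over libraries. No difference could be set against the scatter of libraries. Read depth is unknown. The spread given instead is that between chromosomes, which share the same libraries. Naive and RA-treated levels are means of the listed CpGs of a tile and exist for the 22047 shore tiles with 1 to 4 listed CpGs. The tile table adds 2 columns headed by genotype alone, which were taken as liver because the liver labels name that table and liver has no oxRRBS. That assignment rests on elimination. The table also holds a first and a second set of columns for total methylation and 5mC, with headings that name the genotype only. They are kept apart here and assigned to neither naive nor RA-treated cells.

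Shore tiles were crowded against the dense tiles. There were 19013 of them at 200 bp, the nearest step, and 1147 at 2000 bp. Of all shore tiles 49.7% had no listed CpG, and this share was 38.8% at 200 bp and 68.4% at 2000 bp. The dense tiles of the CpG table formed 13693 runs of neighbouring tiles, of which 8905 held 1 tile and the longest held 10. Most shore tiles, 66.8%, had as their nearest dense neighbour a run of 1 tile. The share of tiles that were shore tiles ranged over autosomes between 9.98% on chromosome 14 and 15.5% on chromosome 19, and it was 6.24% on chromosome X.

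Total methylation was higher with each step away from the dense tiles in RA-treated cells, naive cells and liver, up to 1800 bp. To set the groups side by side, 20063 shore tiles with values in all 6 columns were used. Liver levels are tile values and mESC levels are means of listed CpGs, so comparisons of liver with mESC set unlike measures side by side. In RA-treated cells the mean at 200 bp was 2.26% in p53-null and 2.45% in WT cells, and at 2000 bp it was 30.4% in p53-null and 32.3% in WT cells. In naive cells the mean at 200 bp was 1.49% in p53-null and 1.22% in WT cells, and at 2000 bp it was 23.8% in p53-null and 17.5% in WT cells. Liver had 4.88% in p53-null and 4.78% in WT mice at 200 bp, and 46.0% in p53-null and 45.2% in WT mice at 2000 bp. At every step the order was liver, then RA-treated, then naive, in both genotypes. The last step broke the increase in both naive columns, where p53-null cells had 24.6% and WT cells 17.9% at 1800 bp, and in RA-treated WT cells by less than 0.1 points.

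**Figure D1:**
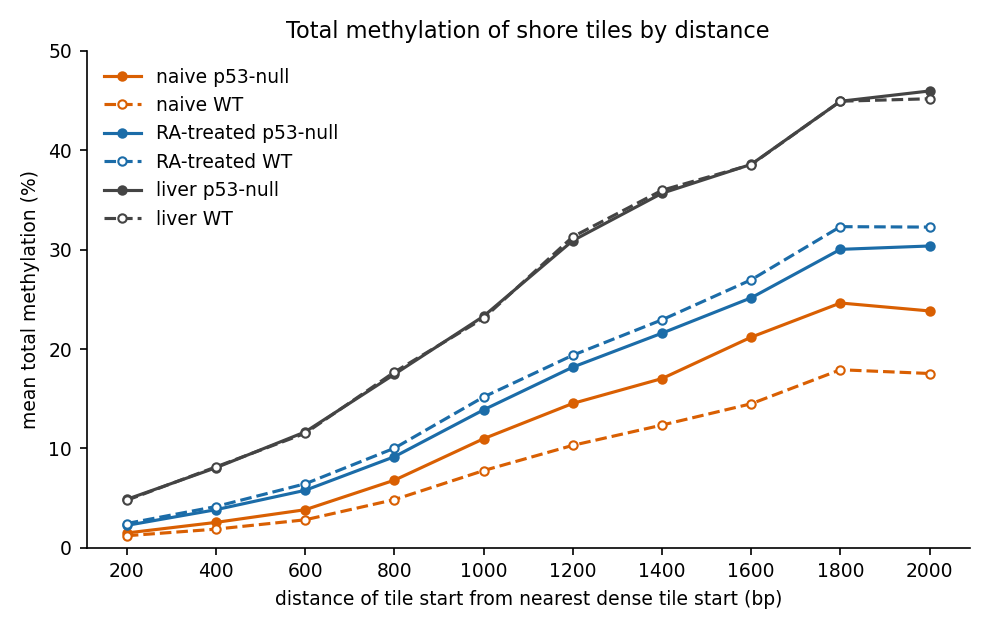
Mean total methylation in percent (y axis) of shore tiles against their distance in bp from the nearest dense tile (x axis), for 20063 tiles with values in all groups. Filled points and solid lines are p53-null, open points and dashed lines WT. Both liver lines lie highest and together, the RA-treated lines lie between, and naive p53-null lies above naive WT at every step.

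The shore reached part of the open sea level within its limit. Dense tiles with values in all 6 columns averaged 1.13% in naive p53-null and 0.94% in naive WT cells, and open sea tiles averaged 38.6% in naive p53-null and 29.8% in naive WT cells. On that scale, shore tiles at 1000 bp had covered 26.3% of the way in naive p53-null and 23.6% in naive WT cells. At 2000 bp they had covered 60.6% in naive p53-null and 57.4% in naive WT cells, and in liver 67.3% in p53-null and 65.8% in WT mice. The gradient went on past the limit. Just inside it, at 2000 bp, all tiles with listed CpGs averaged 25.7% in naive p53-null and 19.1% in naive WT cells, and just outside it, at 2200 bp, 25.7% in p53-null and 18.4% in WT cells. Naive levels averaged 28.3% in p53-null and 20.4% in WT cells for tiles over 2000 and up to 3000 bp away, and 40.5% in p53-null and 31.5% in WT cells over 10000 bp away.

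Single tiles were distributed differently in liver and in mESC, as read by these unlike measures. At 200 bp most shore tiles were under 5% methylated, namely 86.4% of them in liver of either genotype, 94.0% in naive p53-null and 95.4% in naive WT cells. At 2000 bp the share under 5% was 26.5% in p53-null and 25.4% in WT liver, and 33.3% in naive p53-null and 39.2% in naive WT cells. The share at 80% or more at that distance was 32.6% in p53-null and 30.6% in WT liver. In mESC that share was far smaller, with 3.8% in RA-treated p53-null, 4.1% in RA-treated WT, 1.7% in naive p53-null and 0.34% in naive WT cells. Tiles with intermediate values, 20 to 80%, were 50.9% of tiles at 2000 bp in RA-treated p53-null and 52.6% in RA-treated WT cells. In naive cells they were 44.0% in p53-null and 37.1% in WT, where tiles under 5% were the larger class. In liver they were 26.8% in p53-null and 27.5% in WT mice. Values of pooled cells do not tell whether an intermediate tile is partly methylated in every cell or fully methylated in some.

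**Figure D2:**
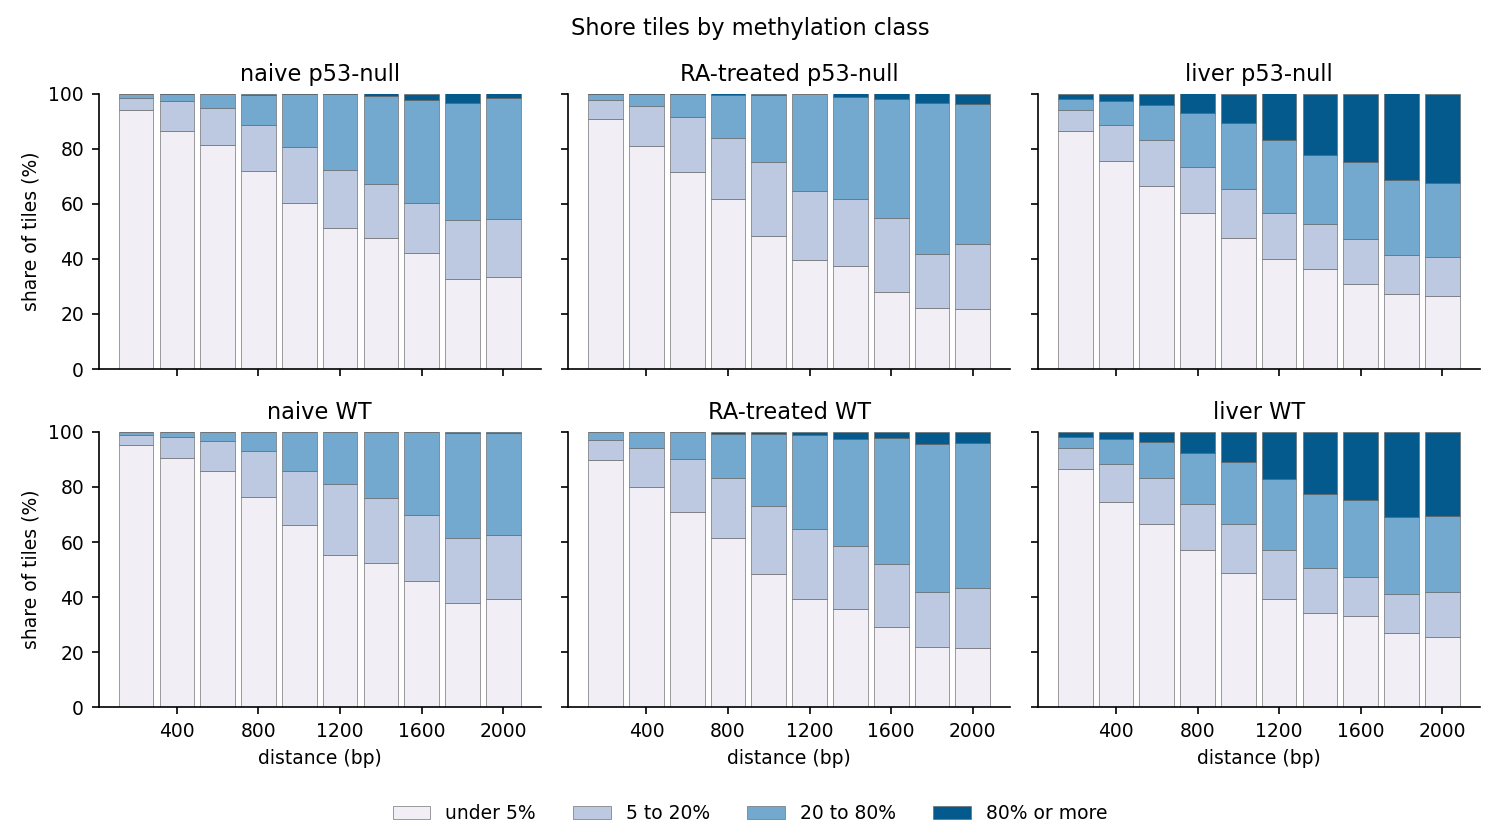
Share of shore tiles in percent (y axis) in 4 classes of total methylation at each distance in bp (x axis), for the same 20063 tiles, with p53-null above WT. The darkest class, 80% or more, reaches 32.6% in p53-null and 30.6% in WT liver at 2000 bp and stays at or under 4.1% there in mESC.

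The state of a shore tile was shared by all groups in most cases. Of the 20063 tiles, 13773 (68.6%) were under 5% in naive cells, RA-treated cells and liver, taking the mean of both genotypes. This share was 83.7% at 200 bp and 16.2% at 2000 bp. Changes between distant classes can be counted directly. There were 112 tiles (0.558%) under 5% in both mESC states and at 50% or more in liver, and their share at 200 bp was 0.489%. Another 112 (0.558%) were under 5% in naive cells and at 20% or more after RA, against 1 with the reverse pattern. In 21 tiles (0.105%) the naive level was at least 20% and the liver level under 5%. These combinations were counted in shore tiles only, so no share over all tiles stands beside them. Open sea tiles with listed CpGs were also higher with RA. Their WT means were 48.6% with RA and 30.4% in the naive state, and their p53-null means 45.2% and 39.3%.

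In naive cells, tiles with 1 listed CpG had higher levels than tiles with 4 at every distance. At 200 bp the mean naive level was 2.60% in p53-null and 2.07% in WT cells for tiles with 1 listed CpG, and 0.73% in p53-null and 0.61% in WT cells for tiles with 4. At 2000 bp it was 30.3% in p53-null and 22.6% in WT cells for tiles with 1 listed CpG, against 5.80% in p53-null and 4.86% in WT cells for the 19 tiles with 4. Levels thus differed with distance at equal numbers of listed CpGs, and with the number of CpGs at equal distance. In liver the order at 2000 bp was broken between 3 and 4 listed CpGs. Tiles with 1 listed CpG had 53.5% in p53-null and 53.7% in WT mice, those with 3 had 22.5% in p53-null and 23.9% in WT mice, and those with 4 had 29.9% in p53-null and 31.7% in WT mice. Shore tiles with 4 listed CpGs, just under the threshold, averaged 0.99% in naive p53-null and 0.81% in naive WT cells, below the dense tiles with 5, just above it, which averaged 2.67% in p53-null and 2.17% in WT cells. By definition a shore tile has a dense tile nearby, and a dense tile need not.

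Levels were also compared by side, run and chromosome. On the side of higher coordinates, shore tiles averaged 4.70% in naive p53-null and 3.45% in naive WT cells, and on the side of lower coordinates 5.17% in p53-null and 3.801% in WT cells. Beside runs of 3 or more dense tiles the naive level at 200 bp was 0.99% in p53-null and 0.77% in WT cells, while beside single dense tiles it was 1.93% in p53-null and 1.57% in WT cells. At 1400 bp the order was the opposite. It was 24.4% in p53-null and 17.7% in WT cells beside the 3 or more, over 51 tiles. Beside single dense tiles it was 17.7% in p53-null and 13.01% in WT cells. In WT cells the order turned back by 2000 bp, with 18.95% beside the 3 or more, over 24 tiles, and 20.07% beside single dense tiles. In p53-null cells these levels were 27.03% and 26.19%. On chromosome X the 311 shore tiles with listed CpGs averaged 3.002% in naive p53-null and 2.26% in naive WT cells, below the autosomal 4.95% in p53-null and 3.64% in WT cells.

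Loss of p53 went with higher shore methylation in naive cells and lower shore methylation after RA. Over the 22047 tiles, naive cells had 4.92% in p53-null and 3.62% in WT, a difference of 1.31 percentage points and a ratio of 1.36. The p53-null mean was higher on 20 of 20 chromosomes, by 0.74 to 1.76 points. In RA-treated cells the means were 6.55% in p53-null and 7.07% in WT, a difference of -0.52 points, and p53-null was higher on 1 of 20 chromosomes. That chromosome was X, named here after its value was seen, with 4.43% in p53-null and 4.08% in WT cells. The naive difference thus had 1 sign on every chromosome, and the RA difference on every chromosome but X. The same signs were found outside the shore. Open sea tiles differed by 8.86 points in naive cells and -3.43 with RA, and dense tiles by 0.18 and -0.13.

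In points, both mESC differences were wider at 2000 bp than at 200 bp, though not at each step. The naive difference was 0.30 points at 200 bp, 3.18 at 1000 bp, 7.04 at 1800 bp and 6.59 at 2000 bp. As a ratio it varied less, being 1.23 at 200 bp, 1.38 at 1000 bp and 1.34 at 2000 bp. The RA difference was -0.21 points at 200 bp, -1.34 at 1000 bp, -1.26 at 1400 bp, -2.29 at 1800 bp and -1.77 at 2000 bp. Its ratio was 0.920 at 200 bp, 0.916 at 1000 bp and 0.948 at 2000 bp. At 2000 bp, 33.3% of tiles were at least 10 points higher in naive p53-null cells and 3.58% at least 10 points lower. In RA-treated cells 7.99% of tiles at that distance were at least 10 points higher in p53-null and 16.3% at least 10 points lower. No share over all tiles is set beside these.

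Liver showed no such difference in the pooled means. Over 38722 shore tiles it had 14.3% in p53-null and 14.3% in WT mice, a difference of -0.04 points, and p53-null was higher on 9 of 20 chromosomes, with chromosome values between -0.49 and 0.50. The step values lay on both sides of 0, between -0.63 points at 1600 bp and 0.14 at 2000 bp. Of the 38722 tiles, 2183 had a pooled value at least 10 points higher in p53-null and 2236 at least 10 points lower. Depth is unknown and no share over all tiles is set beside these counts, so they single out neither real differences nor the shore. Without values per mouse, a real absence of a difference cannot be told from one too small to see here.

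**Figure D3:**
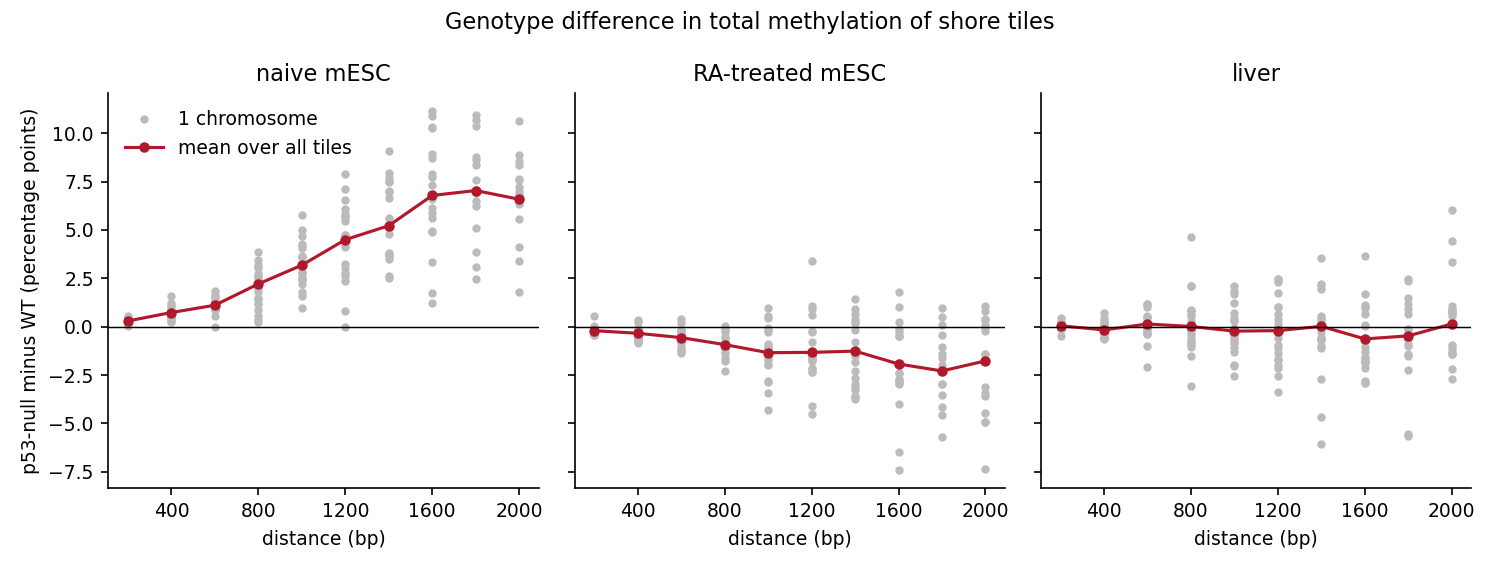
p53-null minus WT in total methylation, in percentage points (y axis), against distance in bp (x axis) for naive mESC, RA-treated mESC and liver. Red points and lines are means over all shore tiles of a step, and grey points are single chromosomes with at least 10 tiles. The naive means lie above 0 at every step, up to 7.04 points, the RA-treated means lie below 0, and the liver means lie on both sides of 0.

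RA treatment went with higher shore methylation in both genotypes, and by more in WT cells. In p53-null cells the means were 6.55% with RA and 4.92% in the naive state, a difference of 1.63 points. In WT cells they were 7.07% with RA and 3.62% in the naive state, a difference of 3.46 points. The difference was positive on 20 of 20 chromosomes in each genotype. At 2000 bp it was 6.38 points in p53-null and 14.7 in WT cells. Of the 22047 tiles, 1680 in p53-null and 2822 in WT cells were at least 10 points higher with RA. At least 10 points lower were 394 in p53-null and 80 in WT cells. No share over all tiles is set beside these counts.

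Liver tile values exceeded the listed CpG means of naive cells by more than those of RA-treated cells did. Over shore tiles with values in both, p53-null liver had 11.03% against 4.48% in naive p53-null cells, 6.55 points apart. WT liver had 11.3% against 3.42% in naive WT cells, 7.91 points apart. Against RA-treated cells the liver difference was 5.0 points in p53-null and 4.59 in WT. Levels in the later groups followed the naive level of the tile. Tiles under 5% in naive cells averaged 1.83% with RA and 4.31% in liver over 17225 tiles. The 697 tiles with naive levels of 20 to 40% averaged 43.2% with RA and 66.0% in liver, and 44.8% of them were at 80% or more in liver. In this class distance made little difference, with 67.0% in liver for tiles at 1400 to 2000 bp and 66.9% for tiles at 200 to 600 bp. Among tiles under 5% in naive cells it did, with 11.8% in liver at 1400 to 2000 bp and 3.56% at 200 to 600 bp, where the naive means were 1.31% and 0.69%. These classes use the naive values, so the naive means follow from them.

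The genotype differences of shore tiles were close to those of open sea tiles of like level in naive cells. Tiles were grouped by their mean level in the other state, so that the values compared did not define their own class. In the class of 40 to 60% after RA, naive shore tiles had 37.9% in p53-null and 27.2% in WT cells, a difference of 10.6 points, and naive open sea tiles had 42.2% in p53-null and 30.8% in WT cells, a difference of 11.5 points. With open sea tiles weighted to the classes of the shore, the naive difference was 1.31 points in the shore and 1.40 in the open sea. For RA-treated cells it was -0.52 points in the shore and -1.0 in the open sea. Levels with RA were not equal within the naive classes, however. In tiles under 5% in naive cells, the WT mean with RA was 1.95% in the shore and 7.60% in the open sea. The 76.6% of shore tiles under 5% after RA differed by 0.13 points in naive cells, with 0.78% in p53-null and 0.65% in WT. These are descriptions of pooled columns, and no test of shore against open sea was possible.

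The tile table gave the same comparison for 5mC and, as total minus 5mC, for 5hmC, in 25791 shore tiles of the first set and 29305 of the second. As a measurement that assigns no state, first set levels of shore tiles with 1 listed CpG and over 5% in the state column lay within 1 point of the naive column in 19.9% of p53-null and 19.97% of WT tiles, and within 1 point of the RA column in 5.19% of p53-null and 2.15% of WT tiles. For the second set the shares were 19.02% in p53-null and 14.9% in WT for the RA column, and 7.19% in p53-null and 4.87% in WT for the naive column. In the first set, total methylation averaged 8.28% in p53-null and 5.94% in WT, a difference of 2.34 points with p53-null higher on 20 of 20 chromosomes. In the second set it averaged 9.12% in p53-null and 9.86% in WT, a difference of -0.74 points with p53-null lower on all 20. These means include tiles without listed CpGs, which had 17.3% in p53-null and 12.3% in WT in the first set, against 9.20% in p53-null and 6.605% in WT for tiles with 1 listed CpG.

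Most of the first set difference was in 5mC. Its mean was 6.35% in p53-null and 4.34% in WT, a difference of 2.01 points, and at 2000 bp it was 26.4% in p53-null and 17.3% in WT. Second set 5mC was 8.16% in p53-null and 9.03% in WT, a difference of -0.86 points. The 5hmC level was small beside the dense tiles and larger far from them, in both sets. In the first set it was 0.60% in p53-null and 0.43% in WT at 200 bp, and 5.82% in p53-null and 5.80% in WT at 2000 bp. In the second set it was 0.40% in p53-null and 0.36% in WT at 200 bp, and 3.41% in p53-null and 2.60% in WT at 2000 bp. Since 5hmC is a difference of pooled values from separate libraries, single tiles scatter below 0, and the lower quartile was -0.24% in p53-null and -0.22% in WT in the first set.

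First set 5hmC differed between genotypes in opposite directions in shore and open sea. Shore tiles averaged 1.92% in p53-null and 1.60% in WT, a difference of 0.32 points, with p53-null higher on 16 of 20 chromosomes. Open sea tiles averaged 5.91% in p53-null and 6.999% in WT, a difference of -1.09 points, with p53-null higher on 0 of 20. By classes of second set total methylation, the open sea difference was above 0 in classes under 40% and below 0 in those from 40%. The shore differences were not ordered by class. In the shore, tiles with 5 to 20% total methylation in the second set had 2.39% 5hmC in p53-null and 1.56% in WT, and tiles with 40 to 60% had 8.62% in p53-null and 8.69% in WT. In the open sea the same classes had 2.07% in p53-null and 1.69% in WT, and 6.49% in p53-null and 7.57% in WT. At 20 to 40% the difference was 1.11 points in the shore and 0.03 in the open sea. At 60 to 80% it was 0.22 points in the shore and -2.03 in the open sea. The 49 shore tiles at 80% or more differed by -4.66 points. With open sea weighted to the shore's classes, the 5hmC difference was 0.29 points in the shore and 0.01 in the open sea. In the second set, 5hmC was 0.96% in p53-null and 0.84% in WT in the shore, and 3.34% in p53-null and 2.26% in WT in the open sea. At single steps of either set the chromosome values of the 5hmC difference had both signs.

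**Figure D4:**
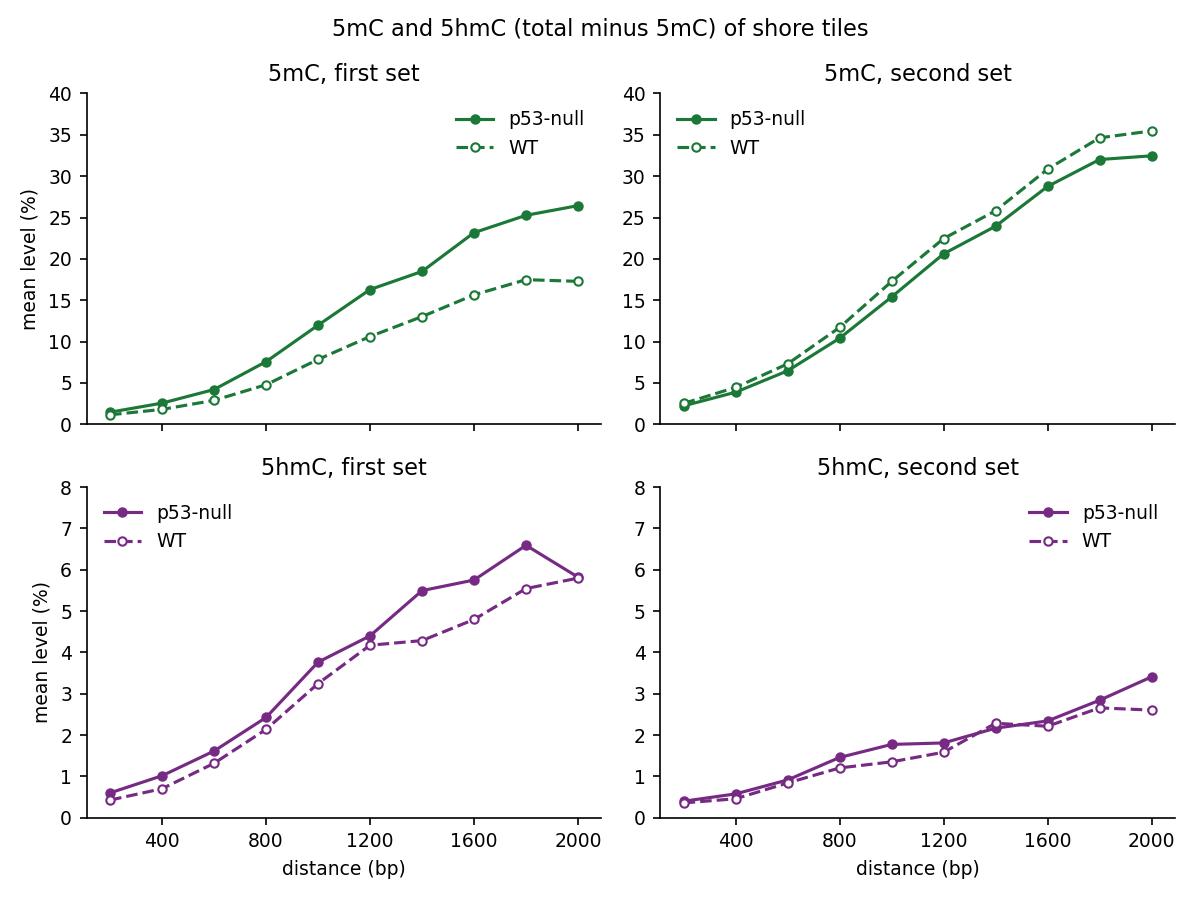
Mean 5mC (upper panels) and 5hmC (lower panels, total minus 5mC) of shore tiles in percent (y axes) against distance in bp (x axes), for the first and second set. Filled points are p53-null and open points WT. First set 5mC is higher in p53-null at every step, second set 5mC is lower, and the 5hmC lines of the genotypes lie close together.

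Calls of single tiles came from q-values, so they are the one result here with a test behind it, made by the authors. Whether that test took libraries or pooled reads as units is not stated. The q-values therefore cannot be read as a measure of scatter between libraries. The call rule was q under 0.05 with 10 points or more between genotypes. In the first set, 1886 of 25791 shore tiles (7.31%) were called higher in p53-null for total methylation in the authors' deposited table, against a background of 28.1% over all tiles of the set. Another 77 (0.299%) were called lower, against 0.786%, by the same q-values of the authors' deposited table. Of 29305 shore tiles in the second set 49 (0.167%) were called higher, against 0.481%, and 255 (0.870%) lower, against 3.65%, in the authors' deposited table. For 5mC, the authors' deposited table gave 2325 shore tiles higher in the first set, or 9.01% against 36.6%, and 503 lower, or 1.95% against 6.03%. Second set 5mC had 304 shore tiles higher, or 1.04% against 2.81%, and 905 lower, or 3.09% against 12.3%, in the authors' deposited table. All 8 shares of the shore under this call rule lay below their backgrounds.

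Distance divided these counts. In the first set the share called higher in p53-null by the authors' deposited table was 1.27% at 200 bp, 15.01% at 1000 bp and 31.6% at 2000 bp, near the 33.1% of open sea tiles. At a like level in the second set, 40 to 60%, the authors' deposited table called 43.2% of shore tiles and 43.2% of open sea tiles higher. For tiles under 5% in the second set these shares were 0.20% of shore tiles and 0.34% of open sea tiles in the authors' deposited table. The share of second set tiles called lower by the authors' deposited table was 0.31% at 200 bp and 2.30% at 2000 bp, with 4.01% at 1800 bp, and open sea tiles had 4.36%. Among second set tiles with 5 to 20% in the first set, 2.68% of shore and 6.15% of open sea tiles were called lower in the authors' deposited table. Second set levels were not equal within that class, with WT means of 20.3% in the shore and 30.4% in the open sea.

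At q under 0.01 and 25 points or more, 347 first set shore tiles (1.35%) were higher and 9 (0.0349%) lower by the authors' deposited table, with backgrounds of 6.52% and 0.104%. By that rule of q and size the second set had 5 (0.0171%) higher and 19 (0.0648%) lower, again from the authors' deposited table, with backgrounds of 0.0476% and 0.493%. For q under 0.05 at any size, the first set in the authors' deposited table had 3395 shore tiles (13.2%) higher and 475 (1.84%) lower, with backgrounds of 32.4% and 1.69%. The second set had 126 (0.430%) higher and 444 (1.52%) lower in the authors' deposited table, with backgrounds of 0.649% and 4.13%. The share lower in the first set at any size was thus near its background, and dense tiles had 2.37% by that rule. The other shares lay below their backgrounds.

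**Figure D5:**
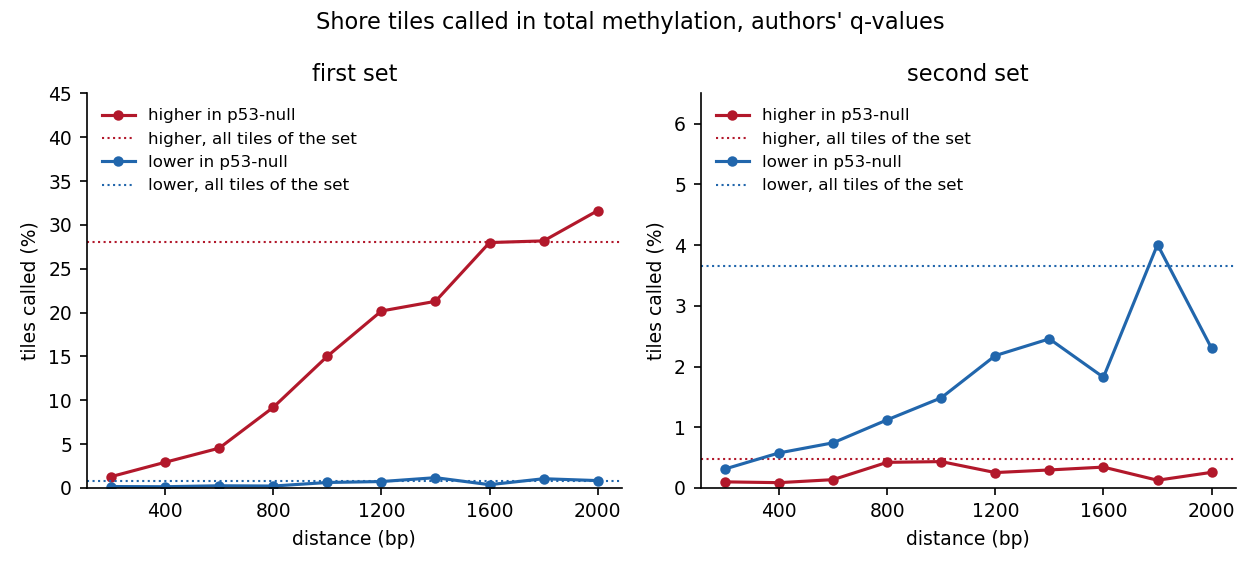
Shore tiles called different in total methylation by the authors' q-values, in the first and second set. Shares are in percent of tiles with values (y axes, on different scales), against distance in bp (x axes). Solid lines are shore tiles and dotted lines all tiles of the set. First set tiles called higher in p53-null reach 31.6% at 2000 bp and cross their background of 28.1%.

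The called shore tiles with the largest differences were mostly single tiles without listed CpGs, 16 of the 20 named. They were picked for their difference, so their values are a description. In the first set, chr1:87789201-87789400, at 1800 bp from a dense tile, had 93.8% total methylation in p53-null and 8.33% in WT, with q = 1.5e-05 in the authors' deposited table. Its 5mC values were 0% in p53-null and 16.7% in WT. The tile chr4:109337001-109337200 had 78.6% in p53-null and 2.94% in WT, with q = 2.28e-09 in the authors' deposited table, and its 5mC was 48.9% in p53-null and 8.33% in WT. In the first of these the genotypes stood in opposite orders in 5mC and in total methylation. Such opposite orders were found in 12 of the 20 named tiles, 7 in the first and 5 in the second set, and in 1 more the 5mC values were equal. Another of them was chr18:82115001-82115200, with totals of 95% in p53-null and 27.3% in WT and 5mC of 0% in p53-null and 56.8% in WT.

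First set tiles lower in p53-null included chr15:90878201-90878400, with 40% in p53-null and 95.2% in WT and q = 0.000216 in the authors' deposited table. Its 5mC order was the opposite, with 50% in p53-null and 0% in WT. Liver had 100% in p53-null and 95% in WT mice there. The tile chr11:94139001-94139200 had 0% in p53-null and 48.0% in WT in the first set, with q = 2.49e-06 in the authors' deposited table, and 14.9% in p53-null and 28.6% in WT in the second set, with q = 0.525 there. Its first set 5mC was 0% in both genotypes.

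Among second set tiles, chr10:79606801-79607000 reversed between the sets. It had 21.7% in p53-null and 73.3% in WT in the second set, with q = 0.0338 in the authors' deposited table, and 80% in p53-null and 29.4% in WT in the first, with q = 0.00262 in the same table. Its 1 listed CpG had 35% in p53-null and 81% in WT with RA, and 81% in p53-null and 28% in WT in the naive state. At chr7:134378601-134378800 the second set had 24% in p53-null and 75% in WT, with q = 0.0116 in the authors' deposited table. Its 1 listed CpG had 31% in p53-null and 77% in WT with RA, and 32% in p53-null and 31% in WT in the naive state, 1 point apart. The tile chr15:84602201-84602400 was higher in p53-null in the second set, with 80.2% in p53-null and 46.2% in WT and q = 0.00322 in the authors' deposited table. Its second set 5mC had the opposite order, 38.9% in p53-null and 58.1% in WT. Its first set totals were 45.3% in p53-null and 37.5% in WT.

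Single shores show the gradient and its noise. The shore at chromosome 8 beyond a run of 3 dense tiles (chr8:122752401-122753000, higher coordinates) had listed CpGs at 8 of the 10 steps. Naive p53-null levels there were 0%, 1.67%, 0.75%, 1.33%, 10%, 14%, 27% and 71% at 200, 600, 800, 1000, 1200, 1400, 1600 and 2000 bp. Naive WT levels at those steps were 0%, 0%, 0.75%, 3%, 17%, 7%, 21% and 45%. Both genotypes thus stayed at or under 3% up to 1000 bp and were highest at 2000 bp, and their order changed between steps. Liver had 29.4% in p53-null and 30.9% in WT mice at 1000 bp, and 78.7% in p53-null and 79.1% in WT mice at 1200 bp. It was lower again at 1400 bp, with 41.7% in p53-null and 54.2% in WT mice, and at 1600 bp the livers differed, with 50% in p53-null and 91.7% in WT mice.

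Beyond a run of 4 dense tiles on chromosome 7 (chr7:57230201-57231000, higher coordinates), first set total methylation stayed at or under 5.48% in p53-null and 4.64% in WT up to 800 bp. It was 31.4% in p53-null and 9.60% in WT at 1200 bp, and 2.33% in p53-null and 14.1% in WT at 1400 bp. Liver levels over these steps did not exceed 18.1% in p53-null and 16.8% in WT mice. Below a run of 3 dense tiles on chromosome 1 (chr1:97563801-97564400, lower coordinates), second set levels were 1.04% in p53-null and 1.39% in WT at 200 bp, 34.5% in p53-null and 34.4% in WT at 800 bp, and 20.97% in p53-null and 17.9% in WT at 2000 bp. Liver was at 0% in both genotypes at 800 bp there and at 31.6% in p53-null and 11.1% in WT mice at 2000 bp. In these 2 shores liver was below the second set at some steps, against the order of the means.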

How the data were processed

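RRBS and oxRRBS libraries fell into 10 groups by the titles. The submitters' processing notes name Trim Galore, BSMAP, methylKit and build mm9. Their roles, versions, coverage filters and the pooling of libraries are not stated there. The authors deposited total methylation in percent for 330387 CpGs, and, per the file headers, each tile's methylation as a fraction, with the WT minus p53-null difference and its q-value. Fractions were multiplied to percent. Differences here are p53-null minus WT, from the deposited levels. A q-value deposited as -1 was taken as none, which for total methylation applied to 6969 tiles in the first set and 6789 in the second. Shares of tiles called are over tiles with a deposited difference, with or without a q-value. Across both tables, 12 columns of values were not used, among them those with undefined suffixes and the deposited 5hmC.

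A tile's naive or RA level is the unweighted mean of its listed CpGs, and each tile counts once in a mean. Distances run between tile starts. Chromosomes entered a spread with at least 100 tiles, or 10 at 1 step. Depth is unknown, so no interval is given. The planned tests over libraries, which need values per library, were not run. Members and lists were chosen with earlier results of these data known. Named tiles are the 5 called shore tiles of largest total difference per set and direction, 1 per 1000 bp, with those not in the text given by number. Worked examples were to be the 3 longest dense runs with values at every step of a side. No side of the 1545 runs of 3 or more tiles had them, so after the data were seen 3 sides with most steps were taken. These were the side with 8 steps and others from 3 sides tied at 6 steps, not all of which were used. The reference genes are on another build, so no gene names or sequences are given. The distance rule was tested on simulated data. Python 3.11.15, numpy 2.4.6, pandas 2.3.3 and matplotlib 3.10.9 were used. Alternatives were other density thresholds, a nearer limit, autosomes, tiles with values in all columns or with listed CpGs, longer runs, medians, and other call rules.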

Additional observations from a re-analysis of the deposited data

Results flagged for a closer look

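The genotype difference of shore tiles had opposite signs in the mESC states. For total methylation it was -0.52 points with RA and 1.31 points in the naive state, so it was 1.82 points lower with RA, written as a change of -1.82 points. This held on 20 of 20 chromosomes. The change was not particular to the shore. It was -12.3 points in open sea tiles, lower on 20 of 20 chromosomes, and -0.32 in dense tiles, lower on 19 of 20. Between the sets of the tile table, the second minus the first set gave a change of -3.00 points over 23809 shore tiles with values in both, with all 20 chromosomes lower. In open sea tiles this change was -13.8 points and in dense tiles -0.36. None of these changes could be tested across libraries, because the values are pooled.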

How the results depend on the processing

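No paired analysis was possible because the deposited values are pooled over libraries and carry no replicate numbers, and for the same reason leaving out single libraries was not run. Of 148 alternative values, 59 moved by less than the spread between chromosomes or, for counts, by less than 1.5 times, 85 moved by more with the same direction or a value of 0, and 4 changed sign. With autosomes only, all 19 values stayed close. The sign changes were in values near 0. Liver p53-null minus WT was 0.0385 points in tiles with 1 to 4 listed CpGs and 0.0010 in tiles with values in all columns, and second set 5hmC was -0.020 and -0.029 in those tiles. The differences and counts depend on how far the shore reaches, by construction. Counts also depend on the number of tiles kept, so each is given with its share of them.

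With dense tiles defined from 3 listed CpGs, p53-null minus WT was 2.83 points in naive cells, -1.25 with RA, 4.28 in the first set and -1.57 in the second. RA minus naive was then 3.61 in p53-null and 7.68 in WT, and liver minus naive 13.7 in p53-null and 16.8 in WT. Calls were 4351 (14.1%) higher and 175 (0.567%) lower in the first set and 115 (0.333%) higher and 672 (1.95%) lower in the second. From 9 listed CpGs, p53-null minus WT was 0.76 in naive cells, -0.23 with RA, 1.46 in the first set and -0.43 in the second. RA minus naive was 0.82 in p53-null and 1.80 in WT, and liver minus naive 3.62 in p53-null and 4.43 in WT. Calls were 774 (4.43%) higher and 30 (0.172%) lower in the first set and 20 (0.101%) higher and 99 (0.499%) lower in the second.

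With a limit of 1000 bp, p53-null minus WT was 0.74 in naive cells, 1.25 in the first set and -0.50 in the second, RA minus naive 1.25 in p53-null and 2.37 in WT, and WT liver minus naive 5.90. Calls were 778 (3.64%) higher and 41 (0.192%) lower in the first set and 138 (0.560%) lower in the second. Tiles with 1 to 4 listed CpGs gave 1.33 in the first set and -0.55 in the second. Their calls, higher and lower in the first then the second set, were 793 (4.21%), 29 (0.154%), 23 (0.115%) and 137 (0.683%). Tiles with values in all columns gave 1.20 and -0.55, with 654 (3.91%), 21 (0.126%), 18 (0.108%) and 115 (0.687%) calls. Near runs of at least 2 dense tiles, RA minus naive in p53-null was 1.29. The calls there were 589 (6.82%), 21 (0.243%), 10 (0.103%) and 67 (0.687%). The stricter call rule gave 347 (1.35%), 9 (0.0349%), 5 (0.0171%) and 19 (0.0648%) calls. Any size of difference gave 3395 (13.2%), 475 (1.84%), 126 (0.430%) and 444 (1.52%). These compare with 1886 (7.31%), 77 (0.299%), 49 (0.167%) and 255 (0.870%) under the main rule. The backgrounds of that rule over all tiles of the set, in that order, were 28.1%, 0.786%, 0.481% and 3.65%.

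Most shore tiles are near 0%, and the mean differences do not describe the median tile. Medians over tiles lay at or near 0 points. They were 0.0 points for naive, RA and second set p53-null minus WT, for RA minus naive in both genotypes and for first set 5hmC. They were 0.18 in the first set and 0.28 in p53-null and 0.29 in WT for liver minus naive. Depth is unknown, so the precision of single tiles, among them the named tiles with conflicting total and 5mC values, cannot be given.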
